A study of Homo sapiens with 4 samples.

Results

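The neuronal genes described here are 37 genes chosen by name, as genes that mark neurons or serve their cytoskeleton, synapses, secretory granules, RNA processing and signalling. A probe set of its own was found for 36 of them, among 19798 genes measured in all; NEUROD1, a transcription factor of neuronal differentiation, had none and was not analysed here. They were followed in HCT-116 cells labelled dicer-, a colon carcinoma line altered in the microRNA-processing enzyme Dicer, on 4 one-colour expression arrays of total RNA taken at 24 h. The groups were mock transfection (2 arrays), miR-124 with its guide strand intact (G/P in the labels, 1 array) and miR-124 whose guide strand was segmented (G10.12/P, 1 array), the duplexes each at 10 nM. The question put to these cells was whether a microRNA keeps its activity when its guide strand is in segments. All groups share the dicer- background, no array of unaltered HCT-116 cells was analysed here, and the labels do not say whether the line is 1 clone. No unrelated duplex was among the groups. Changes due to miR-124 and changes due to transfecting any duplex therefore cannot be told apart.

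miR-124 is the microRNA that neurons hold in greatest abundance. It lowers messenger RNAs that pair with its seed, and among its known targets are repressors that keep neuronal genes silent elsewhere: PTBP1, which blocks neuronal splicing patterns, and CTDSP phosphatases, which work with REST. REST is a repressor that binds the RE1 element near many neuronal genes and, with its cofactor RCOR1, holds them down in non-neuronal cells.

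RE1 elements are shown because they are the regulatory sequence by which neuronal genes are best known. The promoter windows of RefSeq (GRCh38.p14), running from 250 bases before to 50 bases after a transcript start, were listed for 27 of the 37 genes, in 69 windows. They were searched on both strands for the arms of RE1, TTCAGCACC on the left and GGACAG on the right; the motifs do not overlap each other. The left arm stood in a window of 3 of the 27 genes (11.1%), against 128 of 27305 genes in the whole table (0.469%). The right arm, a shorter word, stood in 13 of the 27 (48.1%), against 24% of all genes. A gene with more windows has more chances of a match, and the 27305 genes had 35116 windows in all. Counted by window, the left arm stood in 4.35% of the 69 windows against 0.376% of all windows. The right arm stood in 27.5% against 20.5%. Both arms on 1 strand, with starts at most 20 bases apart, were found for GRIA2, SCG3 and SYN1, and for 14 of the 27305 genes in all (0.0513%). The 3 stretches follow, each read 5′ to 3′ on the strand that carries the arms, which are in capitals.
GRIA2, chr4:157220385-157220414, minus strand: cggcctTTCAGCACCgaGGACAGcgcctcg
SCG3, chr15:51681508-51681537, plus strand: aacTTCAGCACCcacagggcGGACAGcgct
SYN1, chrX:47620067-47620096, minus strand: gccagcTTCAGCACCgcGGACAGtgccttc
In GRIA2 and SYN1 the starts of the arms were 11 bases apart and the stretches ran from -234 to -205 and from -239 to -210 relative to the transcript start; in SCG3 they were 17 bases apart and lay just after the start. Of the 10 genes that passed the test described next, 7 had a window in the table and 0 held the left arm there. A match is a run of letters, not a measured site, and no binding was measured in these samples.

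With the intact duplex 9 of the 36 neuronal genes rose from mock and 1 fell. With the segmented duplex 4 rose, all of them among the 9, and 0 fell. The genes that rose with both were SCN2A, a sodium channel, RTN1, a reticulon of the neuronal endoplasmic reticulum, SCG2, a granin of secretory granules, and KIF5C, a kinesin motor of axons. MAP2, SYP, ENO2, DLG4 and SNAP25 passed with the intact duplex, and NEFH, the heavy neurofilament, was the gene that fell. The remaining 26 genes passed in neither comparison. Levels are log2 of the deposited intensity, a change is a difference of such levels from the mean of the mock arrays, and a gene passed at a Benjamini-Hochberg adjusted p under 0.05 over all 19798 genes by limma, a linear model with moderated variances.

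Read against the arrays as a whole, 25% of the neuronal genes rose with the intact duplex where 14.5% of all genes did, and 2.78% fell where 10.4% of all genes did. With the segmented duplex 11.1% rose, against 3.31% of all genes, and 0% fell, against 2.68%. At an unadjusted limma p under 0.05, 10 of the 36 were higher and 3 lower with the segmented duplex. Of all 19798 genes, 3213 were higher and 2203 lower by that rule. The list was chosen with earlier results of these data known, among them the rise of SCN2A, and it was not tested against other genes. By size alone, 8 neuronal genes were at least 1.5-fold above both mock arrays with the intact duplex (13.7% of all genes) and 1 at least 1.5-fold below (9.52%). The segmented duplex gave 6 above (7.37% of all genes) and 1 below (4.89%). Between the mock arrays themselves 0 of the 36 were 1.5-fold apart, against 3.23% of all genes. The median change over the 36 genes was 0.04 with the intact and 0.08 with the segmented duplex, beside 0.02 and 0.01 over all genes. With arrays centred on their medians the intact median was -0.05, beside -0.07 over all genes. In bulk RNA, fewer cells with a transcript and less transcript per cell cannot be told apart.

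Each treated group is a single array, so its spread is taken from the mock pair, with 1 residual degree of freedom, and no label states whether that pair came from separate cultures. The p-values therefore reflect the spread of these arrays alone, and part or all of it may be technical. Both comparisons share the mock arrays. Median intensities over probe sets ran from 42.6 to 46.3 on the 4 arrays. DICER1 read 11.24 on average in mock cells, 11.13 and 10.80 with the intact and segmented duplex, and did not pass. Of 11 measured colon epithelium markers, EPCAM, CDH1, KRT19, CLDN4, KRT18, CDX2 and KRT20 lay above the range of olfactory receptor genes, while CDX1, VIL1, LGALS4 and CEACAM5 lay within it. That range, used as a gauge of dim probe sets in the absence of a detection call, is a mock level up to 4.65, the 95th percentile of 333 olfactory receptor genes, whose median was 2.91. Probe sets differ in how strongly they bind, so it is no measure of amount between genes.

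**Figure D1:**
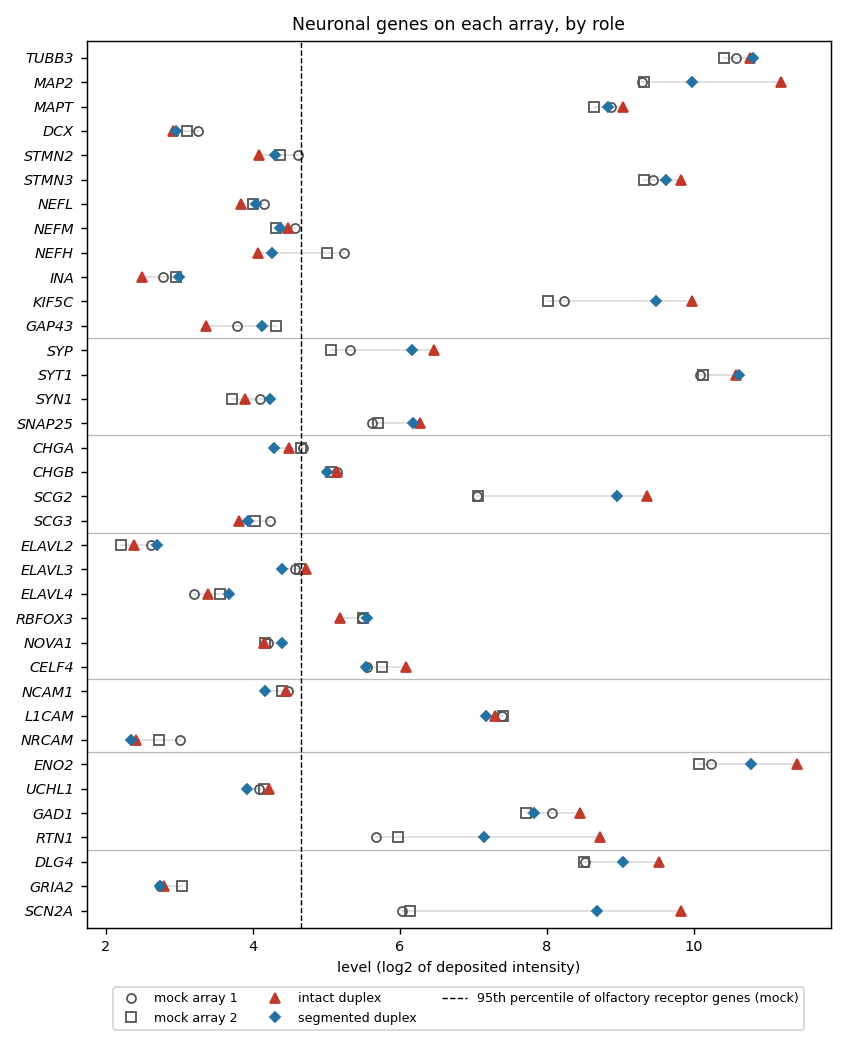
Level of each of the 36 neuronal genes (log2 of deposited intensity, horizontal axis) on mock arrays 1 and 2 (open circle and square), with the intact (triangle) and the segmented duplex (diamond), grouped by role with grey lines between groups; the dashed line is the olfactory receptor gauge of 4.65. The widest separation from mock is that of SCN2A, from 6.03 and 6.14 to 9.82 and 8.68.

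Among 12 genes of the cytoskeleton, 2 rose and 1 fell with the intact duplex, and 1 rose and 0 fell with the segmented duplex. MAP2, which bundles microtubules in dendrites, read 9.29 and 9.32 in mock cells, 11.19 with the intact and 9.97 with the segmented duplex. Both treated arrays stood above both mock arrays. The intact change of 1.89 (3.70-fold, limma SE 0.12, adjusted p = 0.00824) passed, and the segmented change of 0.67 (1.59-fold) had a limma adjusted p of 0.0638. KIF5C read 8.23 and 8.02 in mock cells, 9.98 with the intact and 9.49 with the segmented duplex. Its changes were 1.86 (3.62-fold, limma SE 0.15, adjusted p = 0.00916) and 1.36 (2.57-fold, limma adjusted p = 0.0377). All 5 KIF5C probe sets rose alike, by 1.67 to 1.86 with the intact and 1.29 to 1.45 with the segmented duplex.

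NEFH, whose product with NEFL and NEFM forms the neurofilaments of large axons, read 5.24 and 5.01 in mock cells, 4.07 with the intact and 4.26 with the segmented duplex. Both treated levels were below mock and inside the olfactory receptor range. The intact change was -1.06 (2.08-fold, limma SE 0.16, adjusted p = 0.0205), and the segmented change, -0.86, had a limma adjusted p of 0.0631. The fall was that of the brightest of 3 probe sets; the others changed by 0.21 and -0.29, and with the mean of all probe sets NEFH stood at -0.38 and did not pass (limma adjusted p = 0.0897).

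TUBB3, the neuronal beta-tubulin, was well expressed already in mock cells, with levels of 10.58 and 10.41, against 10.76 with the intact and 10.80 with the segmented duplex. STMN3, a stathmin that binds tubulin, read 9.45 and 9.32 in mock cells, then 9.82 and 9.62. MAPT, which encodes tau, read 8.87 and 8.64, then 9.03 and 8.83, the last between the mock arrays. None of these 3 passed in either comparison; limma gave adjusted p-values of 0.251, 0.0931 and 0.28 for the intact duplex and 0.259, 0.345 and 0.803 for the segmented. A dimmer probe set of MAPT stood further from mock than the brightest, at 0.88 and 0.61.

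The other 6 cytoskeletal genes had mock means from 2.87 to 4.49, within the olfactory receptor range, and passed in neither comparison. DCX, doublecortin of migrating neurons, had a mock mean of 3.18 and changes of -0.26 and -0.22 with the intact and segmented duplex. STMN2, a stathmin of growing axons, stood at 4.49 with changes of -0.41 and -0.19. The neurofilament genes NEFL (mock 4.08, changes -0.24 and -0.04) and NEFM (4.45, 0.03 and -0.08) stayed near mock on their brightest probe sets. The other probe sets of NEFM changed by -0.65 and 0.36 with the intact and by -0.24 and 0.09 with the segmented duplex. INA, internexin, had a mock mean of 2.87 and changes of -0.38 and 0.13. GAP43, a growth cone protein, changed by -0.68 and 0.09 from a mock mean of 4.05, but its mock arrays were themselves 0.53 apart, the widest gap of any of the 36 genes.

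Of 4 genes of synaptic vesicle release, SYP and SNAP25 rose with the intact duplex and 0 passed with the segmented duplex. SYP, the vesicle membrane protein synaptophysin, read 5.32 and 5.07 in mock cells, 6.47 with the intact and 6.16 with the segmented duplex. Both treated arrays were above mock by more than the mock arrays differed. The intact change was 1.27 (2.41-fold, limma SE 0.16, adjusted p = 0.0162), and the segmented change of 0.96 (1.95-fold) had a limma adjusted p of 0.0574. SNAP25, the membrane SNARE of fusing vesicles, read 5.62 and 5.70, then 6.28 and 6.18. Its intact change of 0.62 passed narrowly (1.54-fold, limma adjusted p = 0.0381) and did not pass under a further quantile normalization (0.52, adjusted p = 0.061), with centred arrays (0.53, adjusted p = 0.0549) or with the mean of its 4 probe sets (0.44, adjusted p = 0.109). All 4 were higher with the intact duplex, by 0.20 to 0.62, and 2 of 4 with the segmented duplex.

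SYT1, the calcium sensor of vesicle fusion, was bright in mock cells at 10.08 and 10.13, and read 10.57 with the intact and 10.61 with the segmented duplex. Its 5 probe sets were all higher, by 0.41 to 0.55 and 0.45 to 0.58. By limma the adjusted p was 0.0669 for the intact change of 0.47 and 0.0982 for the segmented change of 0.51. SYN1, synapsin, whose window held both RE1 arms, had mock levels of 4.10 and 3.71, and 3.89 and 4.23 with the intact and segmented duplex; it passed in neither comparison.

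Of the 4 genes of secretory granules, SCG2 rose with both duplexes and the other 3 passed with neither. SCG2, secretogranin II, read 7.05 and 7.06 in mock cells, 9.36 with the intact and 8.96 with the segmented duplex. Its mock arrays were nearly alike, and both treated arrays stood above them. The changes were 2.30 (4.93-fold, limma SE 0.12, adjusted p = 0.00822) and 1.90 (3.74-fold, limma adjusted p = 0.0349), from 1 probe set. The related granins stood near mock: CHGA, at a mock mean of 4.67, changed by -0.17 and -0.37. CHGB, at 5.10, changed by 0.05 and -0.09 on the brightest of 6 probe sets. SCG3, the third gene with both RE1 arms, changed by -0.32 and -0.20 from 4.14.

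The 6 RNA-binding genes, regulators of splicing and stability in neurons, passed in neither comparison, and their changes ran from -0.31 to 0.42 with the intact and from -0.20 to 0.29 with the segmented duplex. The neuronal Hu proteins ELAVL2, ELAVL3 and ELAVL4 had lower mock levels of 2.20, 4.57 and 3.20, with intact changes of -0.03, 0.12 and 0.01 and segmented changes of 0.28, -0.20 and 0.29. RBFOX3, known as the nuclear marker NeuN, stood at 5.49 and changed by -0.31 and 0.06. NOVA1 stood at 4.18 and changed by -0.04 and 0.22, and CELF4 stood at 5.66 and changed by 0.42 and -0.12.

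The 3 adhesion genes did not pass on their brightest probe sets. L1CAM, an axonal adhesion molecule, read 7.39 and 7.41 in mock cells, 7.30 with the intact and 7.17 with the segmented duplex. NRCAM, of the same family, had a mock mean of 2.87 and changes of -0.46 and -0.52. NCAM1, the neural cell adhesion molecule, depended on the probe set. Its brightest read 4.48 and 4.39 in mock cells, 4.45 with the intact and 4.17 with the segmented duplex. Of the other 4, 3 were higher with the intact duplex, by 1.59, 1.09 and 1.80, and with the segmented duplex by 0.65, 0.54 and 0.47, from mock means of 3.41, 3.39 and 2.49. With the mean of the 5 probe sets NCAM1 was 0.87 higher with the intact duplex (limma adjusted p = 0.0161) and 0.23 with the segmented (0.318).

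**Figure D2:**
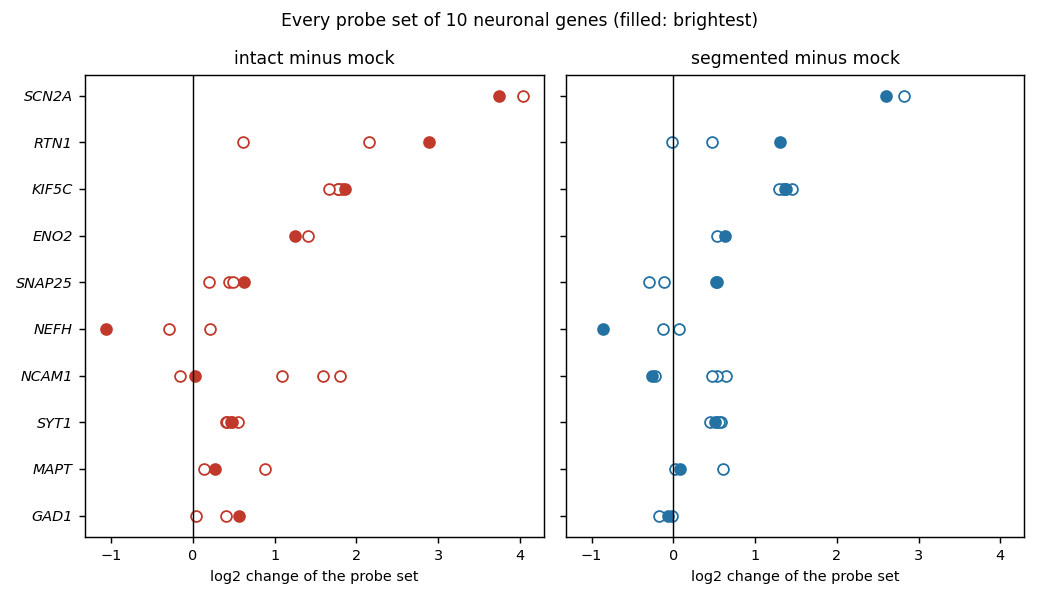
Log2 change of every probe set from the mock mean for 10 neuronal genes, picked after their values were seen, with the intact (left) and the segmented duplex (right); filled points are the brightest probe set, which stood for the gene, and open points the others. KIF5C, SYT1 and SCN2A have probe sets that lie close together, while NCAM1 has 3 at 1.09 to 1.80 and its brightest at 0.02 with the intact duplex.

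Of 4 genes of metabolism, protein turnover and the endoplasmic reticulum, RTN1 rose with both duplexes and ENO2 with the intact duplex. RTN1 read 5.68 and 5.97 in mock cells, 8.72 with the intact and 7.14 with the segmented duplex. The intact change was 2.89 (7.43-fold, limma SE 0.17, adjusted p = 0.00824) and the segmented change 1.31 (2.49-fold, limma adjusted p = 0.0433). Its 3 probe sets differed: 2.89, 2.16 and 0.61 with the intact, and 1.31, 0.47 and -0.02 with the segmented duplex. With their mean the segmented change was 0.59 and did not pass (limma adjusted p = 0.0803).

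ENO2, the neuronal enolase of glycolysis, was bright in mock cells at 10.24 and 10.07, and read 11.40 with the intact and 10.78 with the segmented duplex. Both probe sets were higher, by 1.25 and 1.41 with the intact and 0.63 and 0.53 with the segmented duplex. The intact change passed (2.37-fold, limma adjusted p = 0.0132) and the segmented did not (1.54-fold, 0.0893). GAD1, which makes the transmitter GABA, read 8.07 and 7.71, then 8.45 with the intact duplex and 7.82, between the mock arrays, with the segmented. UCHL1, a ubiquitin hydrolase abundant in neurons, had a mock mean of 4.11 and changes of 0.11 and -0.20. Neither GAD1 nor UCHL1 passed.

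SCN2A, the sodium channel that carries action potentials in excitatory neurons, had the largest change of the 36 genes with either duplex. It read 6.03 and 6.14 in mock cells, 9.82 with the intact and 8.68 with the segmented duplex. The changes were 3.74 (13.3-fold, limma SE 0.13, adjusted p = 0.00822) and 2.60 (6.04-fold, limma adjusted p = 0.0349), and a second, dimmer probe set changed by 4.04 and 2.82. SCN2A was a known large rise on these arrays when the genes were chosen. DLG4, the postsynaptic scaffold PSD-95, read 8.52 and 8.50, then 9.52 and 9.03. Its intact change of 1.01 passed (2.02-fold, limma adjusted p = 0.0141) and its segmented change of 0.52 did not (0.091). GRIA2, an AMPA receptor subunit with both RE1 arms in its window, stood at a mock mean of 2.89 and changed by -0.11 and -0.17.

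**Figure D3:**
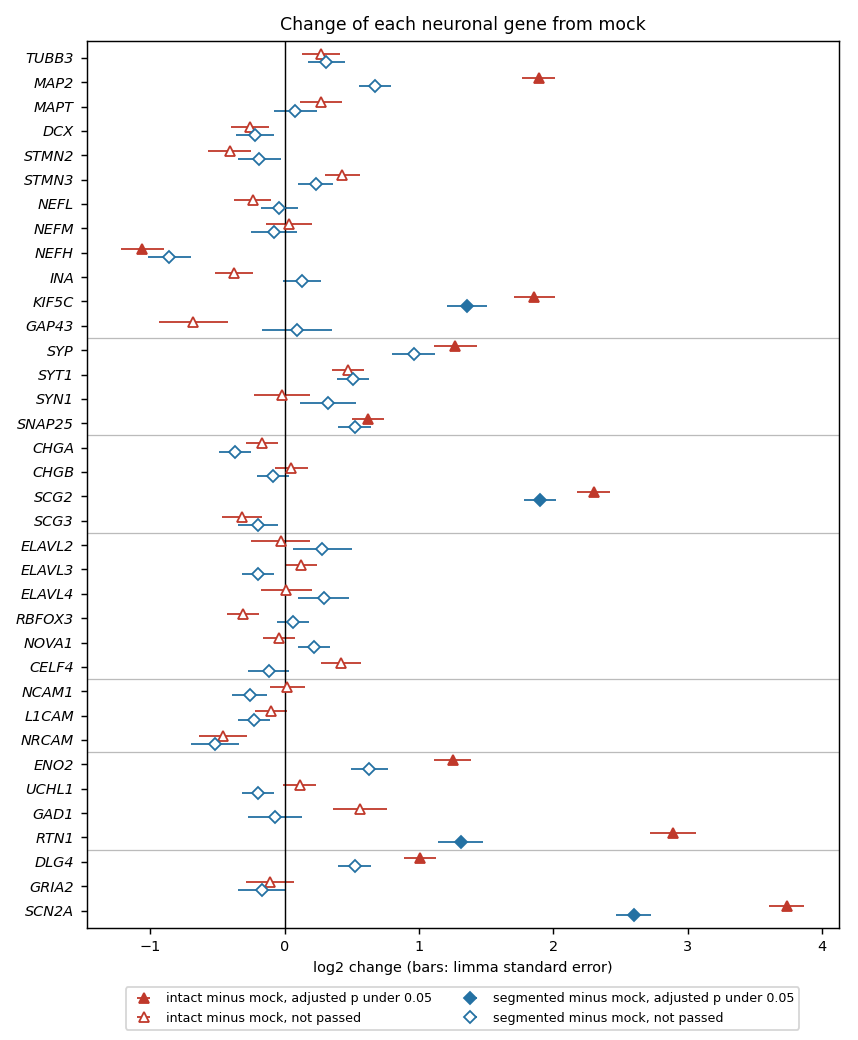
Log2 change of each neuronal gene from the mock mean with the intact (triangles) and the segmented duplex (diamonds); bars are limma standard errors, and filled symbols passed at an adjusted p under 0.05. SCN2A, RTN1, SCG2 and KIF5C are filled for both duplexes, and NEFH is the filled symbol below 0, at -1.06.

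The count of rises among brighter genes depended on whether level was taken over all arrays or over mock cells. Split by the mean level over the 4 arrays, 13 neuronal genes lay above the median of all genes (6.76), and 7 of them rose with the intact and 4 with the segmented duplex. Of all genes above that median 20.5% and 4.48% rose. Of the 23 neuronal genes at or below it, SYP and SNAP25 rose with the intact duplex, NEFH fell, and 0 passed with the segmented duplex; among all genes at or below it 8.53% and 2.14% rose. SCN2A and RTN1 were above that median only with their treated arrays counted. By mock level alone (median of all genes 6.62), 11 neuronal genes were above the median. Of the 9 rises with the intact duplex 5 were among them, and of the 4 with the segmented duplex 2. The share of all genes that rose was not computed for this split, and the shares given above belong to the other split. Over all genes of any level, 14.5% rose with the intact and 3.31% with the segmented duplex. The 15 genes whose brightest probe set stayed within the olfactory receptor range on every array, among them DCX, STMN2, SYN1, GAP43, GRIA2 and NCAM1, passed in neither comparison on that probe set, with changes of -0.68 to 0.11 and -0.52 to 0.32.

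The difference between the duplexes was tested directly as segmented minus intact. By limma 0 of the 36 neuronal genes passed, as did 0% of all genes, and 9 of the 36 had an unadjusted p under 0.05, against 16.5% of all genes. Of those 9, 8 were lower with the segmented duplex and INA, with a difference of 0.51, was higher. RTN1 had the largest difference, -1.58 (95% interval -2.14 to -1.02, limma adjusted p = 0.181), followed by MAP2 at -1.22 (-1.61 to -0.83) and SCN2A at -1.14 (-1.57 to -0.72), each with the same adjusted p. ENO2 differed by -0.62 (-1.08 to -0.16), CELF4 by -0.54 (-1.03 to -0.05), KIF5C by -0.50 (-0.98 to -0.01), DLG4 by -0.49 (-0.88 to -0.10) and SCG2 by -0.40 (-0.79 to -0.01). All 10 genes that passed with the intact duplex had a larger change with it than with the segmented duplex, a comparison that choosing them by the intact change favours.

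For the other genes that passed with the intact duplex the interval held 0: SYP (-0.83 to 0.22), SNAP25 (-0.51 to 0.30) and NEFH (-0.31 to 0.70). SYT1, at 0.04, had an interval of -0.36 to 0.43, and TUBB3, at 0.04, one of -0.41 to 0.50. The intervals of SYP and SNAP25 include the difference of DLG4, -0.49. That of TUBB3 reaches this size only above 0. With a variance prior that followed the level and was fitted robustly, 7 neuronal genes were lower with the segmented duplex: DLG4, ENO2, GAD1, KIF5C, MAP2, RTN1 and SCN2A. Under that prior 12.2% of all genes passed in this comparison in either direction, against 0% in the main fit.

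**Figure D4:**
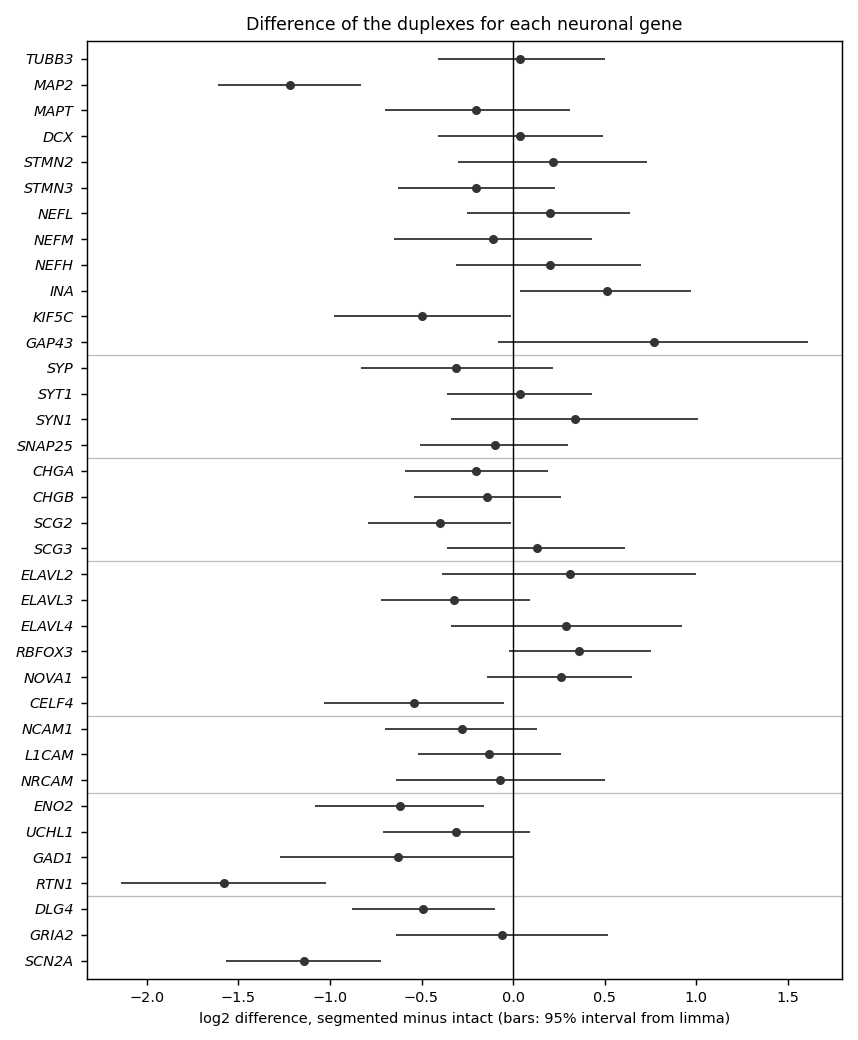
Log2 difference between the duplexes, segmented minus intact, for each neuronal gene with its 95% interval from limma, grouped by role. The intervals of RTN1, MAP2 and SCN2A end at -0.72 or lower.

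A second list of neuronal genes, of synaptic, axonal and other proteins, had 62 measured members. With the intact duplex 17 rose and 3 fell (27.4% and 4.84%), and with the segmented duplex 8 rose and 1 fell (12.9% and 1.61%); the medians were 0.13 and 0.17. SYT11, a vesicle protein, rose by 2.08 and the active zone scaffolds PCLO and BSN by 2.03 and 1.96 with the intact duplex, from mock means of 4.23, 6.86 and 3.30. DPYSL3 fell by 1.36, CPLX1, a complexin, fell by 1.10 and CRMP1 fell by 0.71. CRMP1 was within the olfactory receptor range on every array, and 1 of its 2 probe sets did not share the fall. With the segmented duplex SCN3A, a sodium channel related to SCN2A, rose by 2.12, PCLO by 1.60 and BSN by 1.30, and DPYSL5 fell by 0.83. SCN3A, from a mock mean of 3.14, also rose with the intact duplex (2.84-fold), but 1 of its 2 probe sets went the other way with each duplex.

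Broadly expressed relatives of the neuronal genes had the opposite balance of calls. Of 18, 1 rose and 6 fell with the intact duplex (5.56% and 33.3%), and 0 rose and 1 fell with the segmented duplex. At an unadjusted limma p under 0.05, 7 passed in the segmented comparison in either direction, against 5416 of all 19798 genes. The medians were -0.19 and -0.24. TUBB6, a tubulin of many tissues, fell by 2.51 with the intact and by 1.67 with the segmented duplex, from a mock mean of 11.55. TUBB (-1.21), the intermediate filament genes LMNA (-1.33) and VIM (-1.18), the synaptophysin relative SYPL1 (-0.71) and the reticulon RTN3 (-0.71) fell with the intact duplex. RBFOX2, the widely expressed relative of RBFOX3, rose by 0.63. KIF5B, ENO1, RTN4, SNAP23 and ELAVL1, the relatives of KIF5C, ENO2, RTN1, SNAP25 and the neuronal Hu genes, did not pass, with intact changes of -0.29, -0.10, 0.02, -0.05 and -0.07. The difference between the lists was not tested.

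Among 12 measured regulators of neuronal genes, the intact duplex lowered 5 and raised 1, and the segmented duplex lowered 3 and raised 1. PTBP1 (-2.53 and -1.17), CTDSPL (-2.32 and -2.41) and CTDSP1 (-1.39 and -0.92) fell with both. CTDSP2 (-1.26) and RCOR1 (-0.55) fell with the intact duplex, and PTBP2, the neuronal relative of PTBP1, rose by 2.01 and 1.74. REST itself stood at a mock mean of 11.24 and changed by -0.27 and -0.07, without passing. PTBP1 and the CTDSP genes are literature targets of miR-124 whose fall on these arrays was known when this list was written. Whether the changes of these regulators bear on those of the neuronal genes was not tested.

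**Figure D5:**
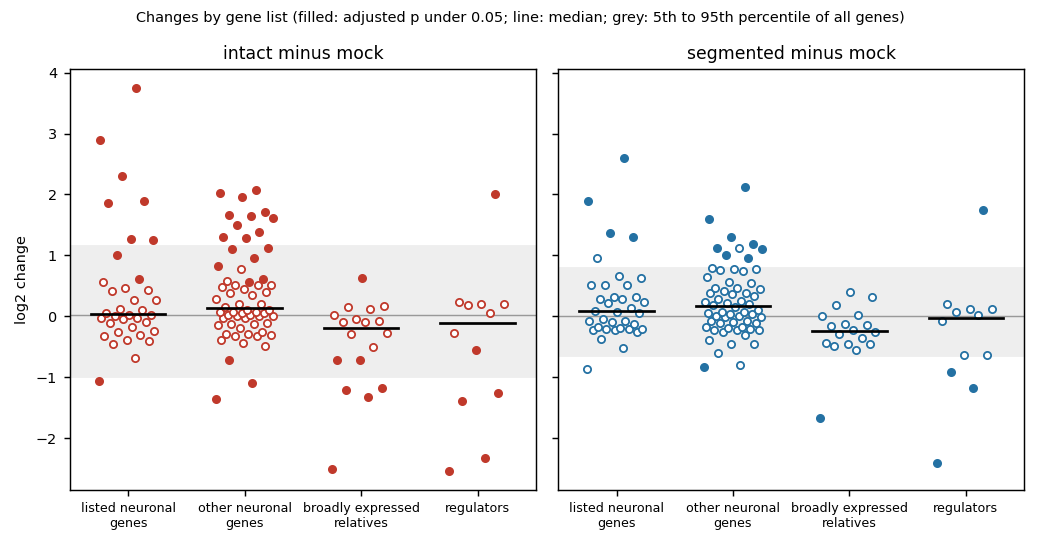
Log2 change of each measured gene of 4 lists with the intact (left) and the segmented duplex (right); filled points passed limma at an adjusted p under 0.05, black lines are list medians, the grey line is the median and the grey band the 5th to 95th percentile of all genes. With the intact duplex the filled points lie mostly above 0 for both neuronal lists (9 of 10 and 17 of 20) and mostly below 0 for the broadly expressed relatives (6 of 7) and the regulators (5 of 6).

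Markers of the labelled and of other cell types were set beside these counts. Of the 11 colon epithelium markers, CDH1 (0.79) and CDX2 (0.69) rose with the intact duplex (18.2%) and 0 fell, and 0 passed with the segmented duplex. At an unadjusted limma p under 0.05, 4 of the 11 passed with the segmented duplex, against 5416 of all 19798 genes. The summed intensity of the 11 markers was 14022 and 14332 in mock cells, 16220 with the intact and 15955 with the segmented duplex. Of 5 glial markers 1 fell with the intact duplex, GFAP by 0.70 from a mock mean of 3.50, within the olfactory receptor range, and 0 passed with the segmented (0 at an unadjusted limma p under 0.05); MBP was the marker above the olfactory receptor range, and the summed intensity of the list was 2201 and 2436 in mock cells, 2566 and 2491 with the duplexes. Of 6 fibroblast and muscle markers ACTA2 (2.23) and COL1A1 (1.20) rose with the intact duplex, and their list summed to 541 and 617 in mock cells, 1596 with the intact and 800 with the segmented duplex. COL1A2, DCN, LUM and DES stayed within the olfactory receptor range. Of 7 endothelial and blood markers 0 passed in either comparison, with 0 at an unadjusted limma p under 0.05. The part of such transcripts in the changes of the neuronal genes was not tested.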

How the data were processed

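Per the submitters' processing notes, the authors made the deposited intensities with RMA, which corrects background, normalizes quantiles and summarises probes; no version is given. The values are linear and were turned into log2 without a pseudocount. Quantile normalization hides a change shared by most genes. Of 52377 probe sets, 35184 had 1 gene in the platform annotation, 374 several and 16819 none listed; symbols were updated through Entrez identifiers (35134 matched). The brightest probe set over the 4 arrays stood for a gene. limma 3.58.1 in R 4.3.3 was fitted to all 19798 genes and 4 arrays with a mean per group and eBayes (prior degrees of freedom 2.89), and was tested on simulated data. The fit takes each single treated array to have the spread of the mock pair, and the number of arrays limits the precision.

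All measured neuronal genes are named, with every array's value for those that passed or had a mock mean above the median of all genes. The examples from the second neuronal list are up to 3 genes with the largest changes each way among those that passed; for the further lists, names were picked with values in view. The genes and lists were chosen with earlier results of these data known. Alternatives were normalization, centring, a filter on the dimmest 40%, the prior, the mean of probe sets, a pseudocount of 16 and leaving out a mock array.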

Additional observations from a re-analysis of the deposited data

How the results depend on the processing

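None of the changes of the 10 neuronal genes that passed reversed under any alternative that was run; 5 of their alternative values dropped out of the test and 19 came into it. The count of 9 genes higher with the intact duplex stayed within 1.5 times that count under the 6 alternatives with a test, but the genes changed. SNAP25 dropped out with quantile normalization, centred arrays and the mean of probe sets, and NCAM1 came in with that mean. The count was 13 with the dimmest 40% left out, 13 with the trended and robust prior and 12 with the pseudocount. Of all genes tested, 58.5%, 39.4% and 35.5% then passed with the intact duplex in either direction. With the mean of all probe sets 0 genes fell with the intact duplex, by the test and by the 1.5-fold rule. With that mean 0 fell 1.5-fold with the segmented duplex. The 1.5-fold falls were also 0 with the pseudocount. With the dimmest genes left out they were 0 because that filter removed NEFH, the gene with the 1.5-fold falls. By the test, the fall under that filter was that of RBFOX3 with the intact duplex (-0.31, limma adjusted p = 0.0442). The segmented count of 4 rises became 10 with the dimmest 40% left out, with the trended and robust prior and with the pseudocount of 16. Of all genes tested, 40.2%, 27.4% and 21.6% then passed in either direction. In the main fit 3.31% of all genes were higher and 2.68% lower with the segmented duplex. The segmented count of falls became 1 with centred arrays, with the trended and robust prior and with the pseudocount. Segmented minus intact gave 5, 7 and 3 genes lower with the dimmest 40% left out, that prior and the pseudocount. Of all genes tested, 15.6%, 12.2% and 5.75% passed in that comparison in either direction. The filter used the mean level over all 4 arrays, so the treated arrays helped decide which genes were kept. It kept 17 of the 36 genes. The median change with the intact duplex was -0.05 with centred arrays and 0.62 with the filter. With the segmented duplex it was 0.02 with centred arrays and with the mean of probe sets, and 0.52 with the filter. The filtered medians describe only the neuronal genes kept, beside 0.09 with the intact and 0.07 with the segmented duplex over all genes kept. Without 1 mock array the median change of the neuronal genes ran from 0.09 to 0.12 with the intact and from 0.07 to 0.08 with the segmented duplex. The 1.5-fold rule then gave 2 falls and 9 rises with the intact and 1 to 2 falls and 6 to 7 rises with the segmented duplex, with no test. The cause of these shifts was not tested. No paired analysis was possible because each treated group is a single array. Without a detection call, the sizes of changes that start near background are uncertain.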
